A study of Mus musculus with 9 samples.

Results

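Classical monocytes are the Ly6C-high cells that leave the bone marrow, circulate in blood and enter injured tissue, where they can mature into macrophages and lose their monocyte markers. The 5 genes described here, *Ly6c2*, *Chil3*, *Plac8*, *Vcan* and *Hp*, are commonly used to recognize these cells in mice. *Ly6c2* encodes a GPI-anchored surface protein of the Ly6 family and is read by the antibody that gives the cells their name. *Chil3* (also called Ym1) encodes a secreted chitinase-like lectin, and *Plac8* encodes a small cysteine-rich intracellular protein. *Vcan* encodes versican, a large chondroitin sulfate proteoglycan of the extracellular matrix, and *Hp* encodes haptoglobin, which binds free hemoglobin. The genes were taken as a given list of 5 among the 53801 genes that each library lists, and all 5 passed the filter on low counts in every comparison.

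Monocytes/macrophages were sorted as CD11c-Ly6G-CD11b+CD45high cells from male C57BL/6J mice aged 9 weeks, and their RNA was sequenced in 9 libraries, 3 per group. In stroke mice the distal middle cerebral artery and the common carotid artery of the left side were closed for good (dMCAO), and their cells were taken 5 days later. The stroke brain group held 3 libraries, each a pool of the ipsilesional hemispheres of 5 mice. The stroke blood group held 3 libraries and the sham blood group, from mice that had sham surgery, another 3, each from the blood of 1 mouse. The sources used here give no day for sham blood, and no genetic modification is named in any group. A brain library averages over 5 animals, so the spread between brain libraries is not the spread between mice. Brain tissue was dissociated with a kit in a heated device and its cells separated on Percoll, while blood was separated on Ficoll. Tissue and preparation therefore cannot be told apart in the comparisons of brain with blood.

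Total counts were between 18475118 and 22623578 per library. The general markers of the sorted population were present in all groups. *Csf1r*, the receptor for macrophage colony-stimulating factor, averaged 2595 ± 136 CPM in sham blood, 2654 ± 554 in stroke blood and 3118 ± 570 in the brain (CPM, counts per 1000000 after TMM scaling; mean ± SD, n = 3). *Ly6g*, the neutrophil surface marker that the sort excluded, was at most 0.838 CPM in any library. *Itgax*, which encodes the CD11c that the sort also excluded, was called higher in the brain than in each blood group, at the thresholds given below. The brain libraries also held RNA of genes that mark microglia and tissue macrophages. The 9 microglia genes listed for this purpose summed to between 1394 and 4001 CPM in the brain and to between 149 and 209 CPM in blood, where *Sall1* and *Olfml3* had 3 counts or fewer in every library.

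The 5 genes lie on 5 chromosomes, all on the minus strand, and no other gene's exons overlap theirs in GENCODE M21 (GRCm38). *Ly6c2* (ENSMUSG00000022584) spans chr15:75108158-75111970, *Chil3* (ENSMUSG00000040809) chr3:106147554-106167564 and *Plac8* (ENSMUSG00000029322) chr5:100553725-100572245. *Vcan* (ENSMUSG00000021614) spans chr13:89655312-89742509 and *Hp* (ENSMUSG00000031722) chr8:109575128-109579172. *Ly6c2* and *Chil3* each have a near-identical neighbor, *Ly6c1* and *Chil4*, from which their reads must be told apart.

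The coding sequences of *Ly6c2* and *Ly6c1* matched at 387 of 396 bases (97.7%), and those of *Chil3* and *Chil4* at 94.4% of aligned columns. Of the 748 stretches of 75 bases in the *Ly6c2* transcript, 164 (21.9%) also occurred in *Ly6c1*, so that a read of this length could fall where the pair cannot be separated. For *Chil3* 208 of 1465 stretches (14.2%) occurred elsewhere, 125 of them in *Chil4* and 86 in the pseudogene *Gm6522*. *Plac8*, *Vcan* and *Hp* shared none. The most divergent 60 coding bases of each pair are printed to show how few letters separate them, with the differing bases in capitals. They run from coding base 6 to 65 in the Ly6 pair and from 500 to 559 in the chitinase-like pair, counted from the A of the start codon.
Ly6c2: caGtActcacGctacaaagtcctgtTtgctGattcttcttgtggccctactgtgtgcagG
Ly6c1: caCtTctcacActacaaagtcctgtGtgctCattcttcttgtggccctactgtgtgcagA
Chil3: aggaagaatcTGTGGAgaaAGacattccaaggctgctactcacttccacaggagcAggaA
Chil4: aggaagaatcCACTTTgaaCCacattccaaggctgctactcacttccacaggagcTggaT

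Despite this likeness, the counts fell almost wholly on 1 gene of each pair. *Ly6c2* had 48976, 44975 and 39654 counts in the 3 sham blood libraries, against 29, 37 and 36 for *Ly6c1*. *Ly6c2* took 99.9% of the counts of the pair on average in each group. *Chil3* had between 72878 and 125428 counts in stroke blood, against 21 to 77 for *Chil4*. In 6 exact two-sided permutation tests of these shares between groups p lay between 0.2 and 0.9, but 3 libraries against 3 cannot go below 0.1, so the tests do not show whether the shares differed.

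The stretches before the start sites of *Ly6c2* and *Ly6c1* are printed as a description. Whether they bear on the levels of these genes was not tested. The 300-base windows around their first RefSeq start sites matched at 73.8% of 282 aligned columns. Promoter windows were found for 4 of the 5 genes in the RefSeq table, *Hp* being the exception. The letters GAGGAAGT, a form of the motif of the myeloid factor PU.1, were searched on both strands and are in capitals. They occurred in 3.20% of all 32851 promoter windows of this length and in that of *Ly6c2*, 108 bases before the start, with another match 26 bases after the start that lies outside the printed stretch. The window of the second *Ly6c2* start site held the same 2 matches, 142 and 8 bases before that start. The window of the first *Ly6c1* start site held no whole match. That of its second start site, chr15:75048614-75048913, held one, 127 bases before the start. This match begins inside the first window and is cut by its end, so the first windows do not show that *Ly6c1* lacks it. The C/EBP motif TTGCNNAA, present in 10.8% of windows, was matched in the window of the second *Plac8* start site and in none of *Ly6c2*, *Chil3* or *Vcan*. Each line gives the 250 bases before the start on the minus strand, from the GRCm38.p6 windows chr15:75111922-75112221 (*Ly6c2*) and chr15:75048788-75049087 (*Ly6c1*). These matches are of letters, not of measured binding.
Ly6c2: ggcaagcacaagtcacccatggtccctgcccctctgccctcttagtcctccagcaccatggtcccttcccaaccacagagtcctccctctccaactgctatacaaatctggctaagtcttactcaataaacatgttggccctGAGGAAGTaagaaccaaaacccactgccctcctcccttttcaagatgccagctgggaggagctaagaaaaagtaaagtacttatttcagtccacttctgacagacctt
Ly6c1: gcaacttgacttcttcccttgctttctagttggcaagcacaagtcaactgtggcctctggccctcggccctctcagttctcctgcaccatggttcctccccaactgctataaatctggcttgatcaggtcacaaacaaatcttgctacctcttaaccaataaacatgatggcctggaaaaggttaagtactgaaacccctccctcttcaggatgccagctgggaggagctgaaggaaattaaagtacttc

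The 5 genes differed widely in level. Per kilobase of merged exons, *Chil3* was the most abundant in every group, with a mean of 8137 ± 5355 CPM per kilobase in sham blood (rank 3 of all genes), 3402 ± 649 in stroke blood (rank 12) and 1246 ± 352 in the brain (rank 24; SD, n = 3). *Plac8*, *Hp* and *Ly6c2* followed, with means per kilobase between 818 and 1183 in sham blood, between 972 and 1984 in stroke blood and between 303 and 563 in brain. *Vcan* was the lowest by far, at 15.2 ± 9.69 CPM per kilobase in sham blood, 7.96 ± 2.70 in stroke blood and 3.74 ± 0.673 in the brain. In sham blood the levels of *Hp* (1183 ± 425) and *Plac8* (962 ± 87.1) lay within their spread. The place of *Ly6c2* depends on the length assumed, since its merged exons cover 2740 bases and the coding transcript 822, and the shorter length would raise its level per kilobase.

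The main question of the design is how cells in the injured brain differ from the circulating cells of the same kind of operated mice. All 5 genes were lower in the brain than in stroke blood, by 2.07-fold (*Vcan*) to 3.43-fold (*Plac8*), and in each of the 5 all brain libraries lay under all stroke blood libraries. All 5 were differentially expressed genes (DEGs, called at a fold change over 2 and an adjusted p under 0.05 by edgeR's quasi-likelihood test with Benjamini-Hochberg adjustment over all genes tested). Among all 13189 genes tested, 7.86% were DEGs lower in the brain, and in 23.2% all brain libraries lay under all stroke blood libraries. The median log2 fold change was -1.64 for the 5 genes and 0.06 for all genes tested. In bulk RNA, fewer cells of a type and less RNA of a gene per cell cannot be told apart.

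*Ly6c2* was at 3029, 2017 and 2942 CPM in the 3 stroke blood libraries and at 899, 868 and 727 CPM in the 3 brain libraries. The highest brain library stood well under the lowest blood library. By the fit, from which all percentages of a level are taken here, the level in the brain was 32.1% of that in stroke blood (log2 fold change -1.64, SE 0.19, edgeR adjusted p = 0.000342), and the call held in 6 of 6 fits that left out 1 library. Relative to the spread of all genes tested, 4.81% had a lower log2 fold change.

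*Chil3* had 6391, 5905 and 4361 CPM in stroke blood and 1373, 2305 and 2420 CPM in the brain. Its brain libraries were the most uneven of the 5 genes, with the highest at 1.76 times the lowest, but all 3 remained under the blood range. The brain level was 37.4% of that in stroke blood (log2 fold change -1.42, SE 0.25, edgeR adjusted p = 0.00267), and between -1.61 and -1.20 with each library left out.

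*Plac8* had 3106, 2043 and 4328 CPM in stroke blood and 803, 1012 and 871 CPM in the brain. Here the unevenness was in blood, where the highest library was at 2.12 times the lowest. The fall was the largest of the 5 (log2 fold change -1.78, SE 0.25, edgeR adjusted p = 0.000904), and its leave-one-out range, from -2.05 to -1.53, contained the log2 fold changes of *Ly6c2* and *Hp*.

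*Hp* had 2138, 1593 and 2274 CPM in stroke blood and 563, 635 and 598 CPM in the brain. The brain libraries were close together, with a coefficient of variation of 5.96%. The level in the brain was 30.7% of that in stroke blood (log2 fold change -1.70, SE 0.17, edgeR adjusted p = 0.00015), the smallest adjusted p of the 5.

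*Vcan* had 90.3, 94.8 and 160 CPM in stroke blood and 58.8, 60.7 and 43.0 CPM in the brain. The groups did not overlap, but the gap between the highest brain library and the lowest blood library was the narrowest of the 5 genes relative to their levels. The log2 fold change was -1.05 (SE 0.24, edgeR adjusted p = 0.0112), just past the fold threshold. The call was lost without stroke blood replicate 3 (-0.78, edgeR adjusted p = 0.0308) and without brain replicate 3 (-0.89, edgeR adjusted p = 0.0502), as well as with library size only (-0.88) and in a single fit of all 9 libraries (edgeR adjusted p = 0.0621).

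**Figure D1:**
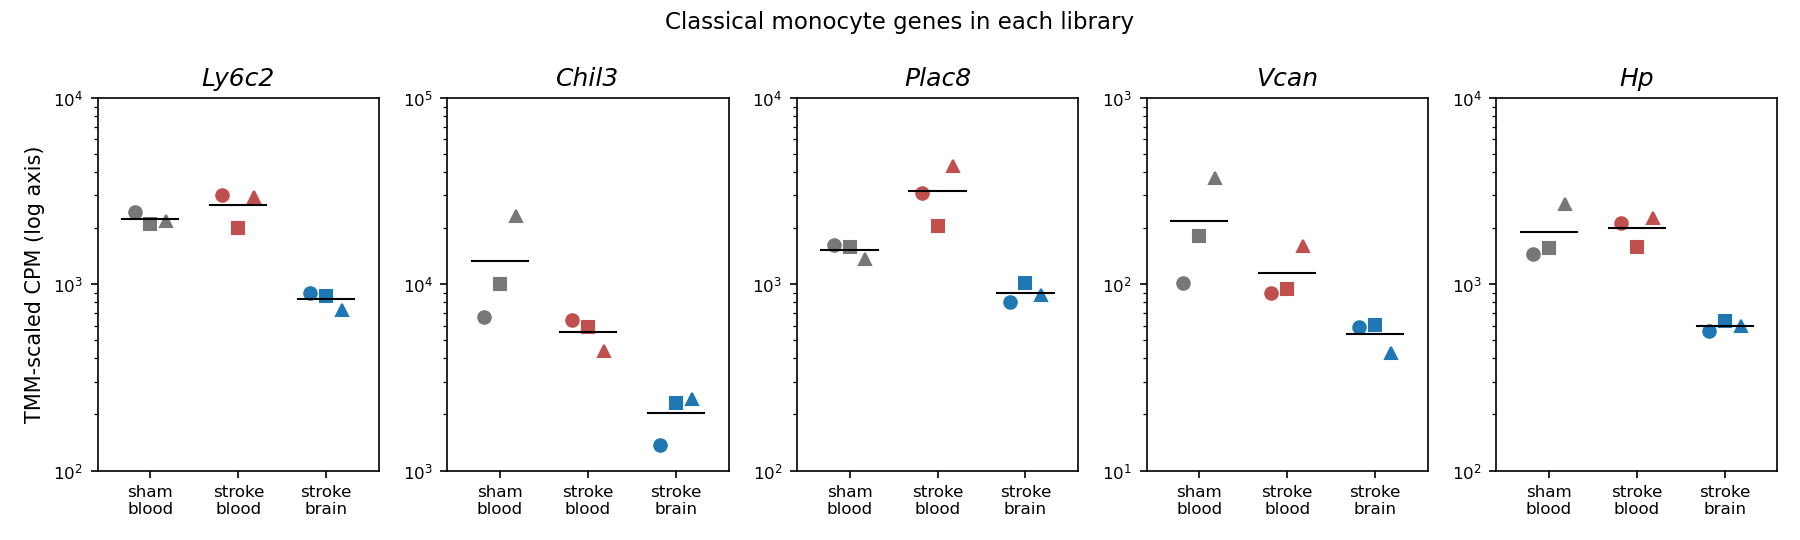
TMM-scaled CPM (log axis, a separate scale for each gene) of the 5 classical monocyte genes in the sham blood, stroke blood and stroke brain libraries; circles, squares and triangles are replicates 1, 2 and 3, and lines are group means. For every gene the 3 brain points lie under all 6 blood points, and *Chil3*, *Vcan* and *Hp* have their highest point in sham blood replicate 3.

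Genes of other cell types moved along with this comparison, in which 13.1% of all genes tested were DEGs higher in the brain. All 9 microglia genes and all 8 tissue macrophage genes (*Mrc1*, *Gpnmb*, *Apoe*, *C1qa*, *C1qb*, *C1qc*, *Trem2* and *Ms4a7*) were DEGs higher in the brain, and the tissue macrophage genes summed to between 10572 and 19252 CPM there, against 2806 to 3209 CPM in stroke blood. Of the 6 dendritic cell genes 5 were higher, *Itgax* among them. The 3 erythroid genes summed to between 3.26 and 11.7 CPM in the brain and to between 10922 and 15628 CPM in stroke blood. Of 12 neutrophil genes tested 7 were higher in the brain, among them *S100a8* and *Ngp*, and *Mmp8* was lower, and the list of 14 summed to between 1207 and 1819 CPM there, against 705 to 1169 CPM in stroke blood. Of the other lists, 4 of 5 platelet genes were lower, 2 of 6 T and NK cell genes were higher and 0 of 4 B cell genes were called (1 at an unadjusted p under 0.05, and 0 by DESeq2). Mitochondrial genes took 1.52% to 2.64% of the counts in stroke blood and 0.379% to 0.727% in the brain, and the 10 largest genes took a median of 15.4% and 12.7%, without overlap between the groups. The part of these cells and library differences in the lower levels of the 5 classical genes was not tested. The brain library with the most microglia RNA, replicate 3, had the lowest *Ly6c2* and *Vcan* but the highest *Chil3*. Without it the log2 fold change was -1.54 for *Ly6c2*, -0.89 for *Vcan*, -1.55 for *Chil3*, -1.75 for *Plac8* and -1.69 for *Hp*.

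Genes that mark monocytes and macrophages in general were listed for comparison. Of 8 such genes 1 was a DEG lower in brain than in stroke blood, *Lyz2*, which encodes lysozyme (log2 fold change -1.33, SE 0.17, edgeR adjusted p = 0.000523), and the median of the 8 was -0.21. *Csf1r* had a log2 fold change of 0.26 (SE 0.21, edgeR adjusted p = 0.367) and *Spi1*, which encodes PU.1, of -0.14. *Itgam*, which encodes CD11b, had -0.59 and *Ptprc*, which encodes CD45, had -0.44, neither past the fold threshold, although all brain libraries lay under all stroke blood libraries for both. *Adgre1* was also lower without overlap, at 382, 537 and 385 CPM in stroke blood and 345, 332 and 377 CPM in the brain. *Cd68* was higher without overlap, at 886, 1010 and 1219 CPM in stroke blood and 1302, 1532 and 1665 CPM in the brain. Over all genes tested, all brain libraries lay above all stroke blood libraries in 24.9% and under them in 23.2%. None of the 8 was a DEG higher in the brain. Whether the classical genes fell more than these genes was not tested.

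Other genes that are used as markers of classical monocytes were listed besides the 5. *Lyz2* and *Fcgr1* stand in this list and in the general list above. Of these 14 genes, all tested, 8 were DEGs lower in the brain than in stroke blood and none was higher, with a median log2 fold change of -1.18. *Mgst1*, a microsomal glutathione transferase, went from 1165, 720 and 1120 CPM in stroke blood to 185, 200.4 and 184 CPM in the brain (log2 fold change -2.36, SE 0.20, edgeR adjusted p = 5.75e-05), a larger fold than for any of the 5 genes. *S100a4*, a calcium-binding protein gene whose exons overlap *Gm42674* on the same strand, was lower by a log2 fold change of -2.23 (SE 0.30). The interferon-induced membrane protein gene *Ifitm6* had -1.75 and the fibronectin gene *Fn1* -1.59. The smallest of the 8 was the coagulation factor gene *F13a1* at -1.06, called in 4 of 6 fits that left out 1 library. *Fn1* and *F13a1* each overlap a gene on the opposite strand, whose reads cannot be told apart where counting ignores strand.

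The remaining 6 genes of that list did not pass. *Ccr2*, the chemokine receptor by which classical monocytes leave the marrow and enter tissue, had 1907, 2360 and 2026 CPM in stroke blood and 1083, 1261 and 1189 CPM in the brain. Its groups did not overlap, and its log2 fold change of -0.80 (SE 0.16, edgeR adjusted p = 0.00477) stayed under the fold threshold. *Ms4a4c*, whose exons overlap *Gm5692* on the opposite strand, had -0.93 (SE 0.16) and is uncertain in the same way as *Fn1*. *F10* (-0.19), *Fcgr1* (0.23) and *Cd93* (-0.27) overlapped between the groups. *Ly6c1* was near the limit of detection but lower in every brain library, at 1.99, 1.47 and 2.51 CPM in stroke blood and 0.876, 0.913 and 0.349 CPM in the brain. The list was therefore not uniformly lower. Of 12 genes of the non-classical, Ly6C-low monocytes, *Nr4a1*, a nuclear receptor on which these cells depend, was higher in the brain and *Ear2* lower. This is 1 of 12 in each direction, where 13.1% of all genes tested were DEGs higher and 7.86% DEGs lower. An unadjusted edgeR p under 0.05 was found for 8 of the 12 and for 42.2% of all genes, and DESeq2 called 3 of the 12 and 19.2% of all genes. The median log2 fold change of the 12 was 0.13. *Nr4a1* was uneven in the brain, at 3105, 690 and 864 CPM, and its log2 fold change ranged from 1.57 to 2.94 with a library left out.

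**Figure D2:**
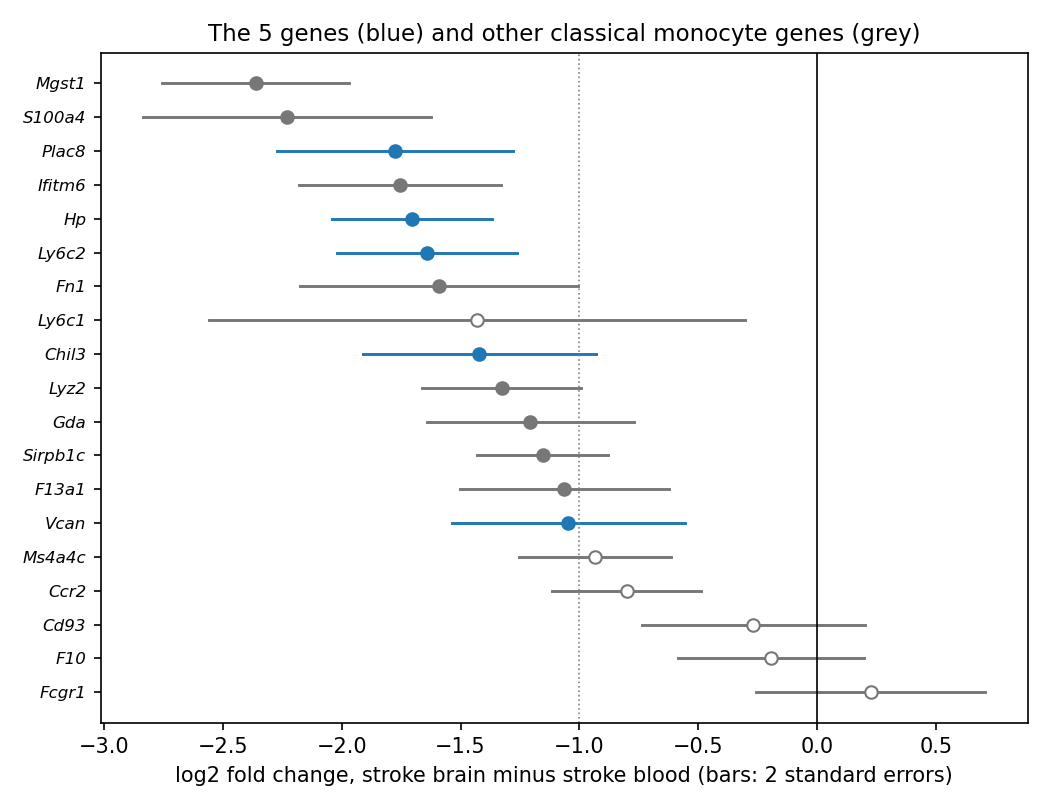
Log2 fold changes, stroke brain minus stroke blood, of the 5 classical monocyte genes (blue) and 14 other classical monocyte genes (grey); bars are 2 standard errors, filled points are DEGs, and the dotted line is the fold threshold. The 5 genes lie between -1.78 and -1.05, within the range from *Mgst1* at -2.36 to *Fcgr1* at 0.23.

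Circulating cells of stroke mice were next compared with those of sham mice. None of the 5 genes was a DEG, where 0.0079% of 12664 genes (1 gene) was, by edgeR's quasi-likelihood test. At an unadjusted p under 0.05 the counts were 3 of the 5 (*Chil3*, *Plac8* and *Vcan*) and 12.5% of all genes tested. The 5 genes did not move together. *Plac8* had a log2 fold change of 1.00 and *Chil3* of -1.28, and their standard errors were 0.25 and 0.41. Mitochondrial genes took 0.837% to 1.23% of the counts in sham blood and 1.52% to 2.64% in stroke blood. The 10 largest genes took 16.2% to 17.3% and 15.1% to 15.8%. Non-classical genes summed to 1783 to 2412 CPM in sham blood and 2703 to 2967 CPM in stroke blood. An unadjusted edgeR p under 0.05 was found for 4 of 4 B cell genes and 3 of 6 T and NK cell genes. For 8 tissue macrophage genes the count was 0. The part of these differences in the levels of the 5 genes was not tested.

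*Plac8* was at 1629, 1594 and 1373 CPM in sham blood and at 3106, 2043 and 4328 CPM in stroke blood. All stroke libraries lay above all sham libraries, as they did for 9.77% of all genes tested. Its fitted level was 201% of that in sham blood, with an edgeR adjusted p of 0.285. *Chil3* was at 6645, 10014 and 23181 CPM in sham blood and at 6391, 5905 and 4361 CPM in stroke blood. All stroke libraries lay under all sham libraries, as they did for 8.29% of all genes, but sham replicate 1 and stroke replicate 1 nearly met. The edgeR adjusted p was 0.32.

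The size of the *Chil3* difference rested on 1 sham mouse. Without sham blood replicate 3 the log2 fold change of *Chil3* was -0.63, that of *Vcan* -0.35 in place of -0.96, and that of *Hp* 0.36 in place of 0.04. That library had the highest *Chil3* (23181 CPM), *Vcan* (374 CPM) and *Hp* (2684 CPM) of all 9, and the 5 genes took 2.92% of its counts, against 1.20% and 1.56% in the other sham libraries. *Ly6c2* and *Plac8* were not raised in it, at 2194 and 1373 CPM. The 14 neutrophil genes listed summed to 3893 CPM in the same library, against 1064 and 1298 CPM in the other sham libraries and 705 to 1169 CPM in stroke blood. Its *S100a8*, a neutrophil-rich calprotectin subunit gene, was at 977 CPM, against 42.1 and 76.8 CPM, and its *Ly6g* at 0.664 CPM. The part of neutrophil RNA in the levels of *Chil3*, *Vcan* and *Hp* was not tested. Sham blood replicate 1 also stood apart, with erythroid genes summing to 943 CPM, against 27281 and 25194 CPM, and the lowest *Chil3*, *Vcan* and *Hp* of the 3 sham libraries. Without it the log2 fold change was -1.61 for *Chil3* (edgeR adjusted p = 0.0875) and -1.31 for *Vcan* (edgeR adjusted p = 0.116).

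The choice of test mattered for *Chil3* and *Plac8*. DESeq2 called *Chil3* lower in stroke blood (log2 fold change -1.29, DESeq2 adjusted p = 0.024), where it called 1.06% of all genes, and so did edgeR without the filter on low counts (-1.31, edgeR adjusted p = 0.00561), where it called 0.686% of genes. *Plac8* then had adjusted p values of 0.0124 (DESeq2) and 0.00897 (edgeR without the filter), and log2 fold changes of 1.00 and 0.98 that lay just under the fold threshold.

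*Ly6c2* and *Hp* did not differ detectably between the blood groups. *Ly6c2* was at 2435, 2094 and 2194 CPM in sham blood, a range that lay within that of stroke blood, and its log2 fold change of 0.21 had an interval of 2 SE on either side from -0.16 to 0.59. *Hp* was at 1448, 1566 and 2684 CPM in sham blood, with a log2 fold change of 0.04 and an interval from -0.46 to 0.55. *Vcan*, at 101, 183 and 374 CPM in sham blood, overlapped with stroke blood (log2 fold change -0.96, SE 0.42, edgeR adjusted p = 0.395). Of the 14 other classical monocyte genes none was called between the blood groups by edgeR, and their median log2 fold change was 0.11. An unadjusted edgeR p under 0.05 was found for 6 of the 14 and for 12.5% of all genes tested. DESeq2 called 0 of the 14 and 1.06% of all genes.

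**Figure D3:**
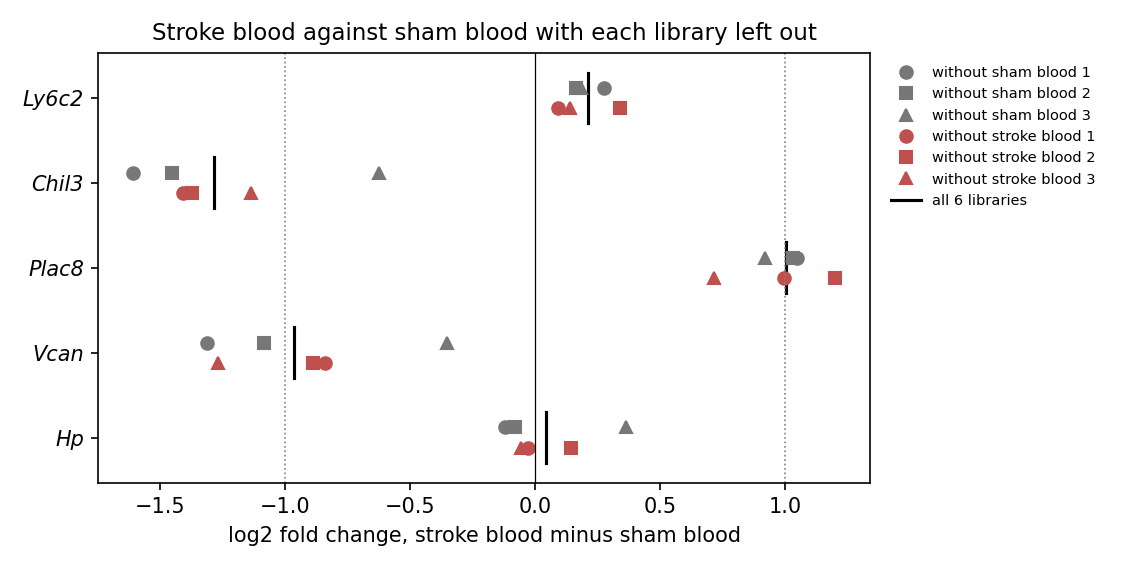
Log2 fold changes of the 5 genes, stroke blood minus sham blood, with all 6 libraries (black lines) and without each of them (grey for sham, red for stroke; circles, squares and triangles for replicates 1, 2 and 3); dotted lines are the fold threshold. Leaving out sham replicate 3 moves *Chil3* to -0.63 and *Vcan* to -0.35, while *Plac8* stays between 0.72 and 1.20.

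Brain cells were lower than sham blood cells as well. This comparison shares its brain libraries with the first, so the comparisons are not independent. For all 5 genes every brain library lay under every sham library, as it did for 19% of 13020 genes tested, and 4 of the 5 were DEGs lower in the brain, as were 3.67% of all genes. *Chil3* had the largest fold of the 5, at 15.3% of the sham level (log2 fold change -2.71, SE 0.47, edgeR adjusted p = 0.00824), and -2.05 without sham replicate 3. *Vcan* had -2.02 (SE 0.44, edgeR adjusted p = 0.0172), and -1.40 without sham replicate 3. Its call was lost without brain replicate 2 (edgeR adjusted p = 0.0546) and without brain replicate 3 (edgeR adjusted p = 0.0658).

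*Hp* (log2 fold change -1.67, SE 0.24) and *Ly6c2* (-1.43, SE 0.15) were called in 6 of 6 fits that left out 1 library. *Plac8* had the smallest fall against sham blood and was not a DEG, with 58.4% of the sham level (log2 fold change -0.78, SE 0.15, edgeR adjusted p = 0.0109). Of the 5 genes it had the largest fall against stroke blood and the smallest against sham blood, while *Vcan* had the smallest against stroke blood. Of the 14 other classical genes 7 were DEGs lower than in sham blood, with a median log2 fold change of -1.21.

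**Figure D4:**
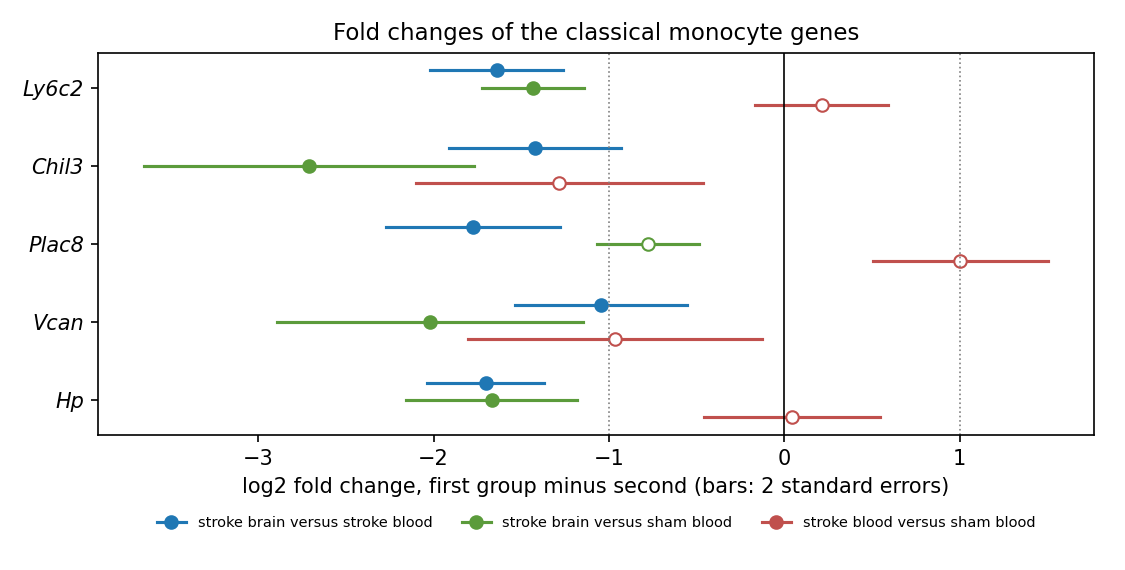
Log2 fold changes of the 5 genes in the 3 comparisons, with bars of 2 standard errors; filled points are DEGs and dotted lines mark the fold threshold. The points of the 2 brain comparisons lie between -2.71 and -0.78, and those of stroke versus sham blood between -1.28 and 1.00.

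The 5 genes also differed in how evenly replicates expressed them. In sham blood the coefficient of variation was 7.83% for *Ly6c2* and 9.05% for *Plac8*, and 65.8% for *Chil3*, 63.8% for *Vcan* and 35.9% for *Hp*. Of the 1278 genes with a like mean level to *Vcan* in sham blood, 98.2% varied less. In stroke blood the most variable was *Plac8* at 36.2%, and in the brain *Chil3* at 28.2%. Across the 9 libraries the Pearson correlation of log2 CPM was highest between *Ly6c2* and *Hp* (0.94) and lowest between *Chil3* and *Plac8* (0.39), values that carry the differences between the groups and are given as a description.

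For each gene the 3 most similar genes over the 9 libraries were sought among 6352 genes with a mean log2 CPM above 4. The patterns most like *Ly6c2* were those of *Impa2* (r = 0.992), *Cisd1* (0.991) and *Mgst1* (0.990). *Chil3* was most like *Gm6522* (0.997), the pseudogene with which it shares stretches of sequence, and their reads may not be fully separated; *Smpd1* (0.972) and *Tuba4a* (0.956) followed. *Plac8* was most like *Tmem128* (0.991), *Spcs1* (0.989) and *Sf3b5* (0.983), and *Vcan* like *Jaml* (0.963), *Fam160a2* (0.961) and *Atp13a2* (0.957). *Hp* was most like *1110008P14Rik* (0.996), whose exons overlap *Ciz1*, *I830127L07Rik* (0.991) and *Fpr2* (0.990), a formyl peptide receptor gene that overlaps *Fpr3*. *Impa2*, *Tuba4a*, *Spcs1*, *Jaml* and *Fam160a2* overlap a gene on the opposite strand and are uncertain in the same way.

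The neighbors of *Ly6c2* in the Ly6 family, chosen after their values were seen and given with no test, did not all follow it. *Ly6a*, which encodes the surface antigen Sca-1, was at 34.3, 17.4 and 35.8 CPM in stroke blood and at 64.3, 127 and 102 CPM in the brain. *Ly6i* was at 107, 74.8 and 92.3 CPM in stroke blood and at 109, 128 and 111 CPM in the brain. *Ly6a* was higher in every brain library than in every stroke blood library, where *Ly6c2* was lower, and the ranges of *Ly6i* nearly met. *I830127L07Rik*, a nearby pseudogene that is also among the genes most like *Hp*, was at 724, 431 and 649 CPM in stroke blood and at 113, 117 and 92.1 CPM in the brain, lower in every brain library as *Ly6c2* was. *Ly6e* was at 4624, 4212 and 5835 CPM in stroke blood and at 2665, 3235 and 3317 CPM in the brain, with every brain library under every stroke blood library.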

How the data were processed

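Read quality was checked by the authors with FastQC (run in Chipster); HISAT2 was used for alignment to GRCm38 and HTSeq for counting. The deposited files hold raw counts for Ensembl genes, which were not normalized. Versions, annotation release and strand setting are not given in the sources used here. cDNA was amplified by PCR without molecular identifiers.

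Symbols, exons and positions came from GENCODE M21, and promoter windows from RefSeq (GRCm38.p6). The 2 groups of each comparison were fitted with edgeR 4.0.16 in R 4.3.3 (TMM, default low-count filter, quasi-likelihood F test, Benjamini-Hochberg over all genes tested); DEGs were those with a fold change over 2 in either direction whose adjusted p was below 0.05. Levels are CPM scaled by TMM over all 9 libraries, and the SE is the log2 fold change over the square root of F. Alternatives were DESeq2 1.42.0, other scalings, filters and thresholds, a single fit, a replicate block and each library left out; leaving libraries out for the *Chil3* share was added after seeing the data. Scripts were tested on simulated data. Counts of replicates were unequal beyond counting error (chi-square divided by its degrees of freedom, 23.9 to 136), so each library was a replicate. Depth, at least 18475118 counts per library, was not limiting for the 5 genes, each with 986 counts or more in every library.

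The 5 genes and all marker lists were chosen with earlier results of these data known. The named genes are those of the lists and the 3 with the highest correlation to each of the 5; the Ly6 neighbors were added after values were seen. Of all identifiers, 53706 were found in GENCODE M21. The sequence of *Hp* and protein sequences were not used here. A further item of the marker lists is not reported here.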

Additional observations from a re-analysis of the deposited data

How the results depend on the processing

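Of 70 recomputed log2 fold changes of the 5 genes in each comparison, direction and call were kept by 66 (brain versus stroke blood), 64 (stroke versus sham blood) and 68 (brain versus sham blood). The others were these. *Vcan* in brain versus stroke blood was not called with library size only (log2 fold change -0.88), in a single fit of all 9 libraries (-1.09, edgeR adjusted p = 0.0621), and without the libraries named in the report. At an adjusted p below 0.01, a threshold outside the 70 values, it was not called either, and 4 of the 5 genes were. *Vcan* in brain versus sham blood was not called without brain replicate 2 (edgeR adjusted p = 0.0546) or without brain replicate 3 (edgeR adjusted p = 0.0658). *Chil3* in stroke versus sham blood was called by DESeq2 and without a low-count filter, so that 1 gene was called in place of 0. *Hp* in stroke versus sham blood ranged from -0.12 to 0.36 with each library left out, and was -0.12, -0.08, -0.03 and -0.05 in the fits where it changed sign, none of them called. The share of *Ly6c2* over *Ly6c1*, with each library left out, differed by -0.0267 to 0.00191 percentage points between brain and stroke blood, by -0.00388 to 0.0119 between the blood groups and by -0.0239 to 0.0047 between brain and sham blood.

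Over all genes, brain versus stroke blood gave 2771 DEGs and 1793 at an adjusted p below 0.01; brain versus sham blood gave 1748, 792 at that threshold and 1146 (without sham replicate 3) to 1883 with a library left out. Stroke versus sham blood gave 1 DEG, 127 with DESeq2, 160 with no low-count filter, 0 at an adjusted p below 0.01 and from 0 to 16 (without sham replicate 1) with a library left out. With library size only, the median log2 fold change of all genes in brain versus stroke blood moved from 0.06 to 0.22, and the share of DEGs that were lower from 37.4% to 27.8%; upper-quartile scaling gave -0.09 and 47.3%. For brain versus sham blood library size only moved the median from 0.01 to 0.13. Per kilobase of the longest transcript, *Plac8* was at 1252 in sham blood and 732 in the brain, and *Hp* at 1488 in stroke blood and 445 in the brain; *Hp* in the brain was at 643 CPM with library size only. The causes of these changes were not tested.

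Same-numbered libraries did not visibly deviate together (correlations from -0.07 to 0.07). With 3 libraries per group and pooled brain libraries, such correlations cannot exclude a pairing by number. With the replicate block the DEG counts were 2634, 1 and 1571 in the order of the 3 comparisons of the report, and 5, 0 and 4 of the 5 genes were called.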
